A study of Mus musculus with 22 samples.

Results

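The Egr, Ier and Nr4a immediate early genes are 9 of the 18193 genes measured, Egr1, Egr2, Egr3, Ier2, Ier3, Ier5, Nr4a1, Nr4a2 and Nr4a3. They were measured in mouse embryonic fibroblasts by 20 of the 45101 probe sets of an Affymetrix expression array, which were taken because the platform annotation assigns each of them to a single gene, that gene being one of the 9. All 9 genes had at least 1 probe set. Values are log2 expression levels, so a difference of 1 is a doubling. Every p-value was adjusted over all 45037 probe sets that are not array controls, and a difference is described as called where that value was under 0.05.

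The 22 arrays form 4 groups. In the oncogene group (5 arrays, of 6 that the design text counts), adenoviral Cre recombinase switched on a mutant oncogene. In the Wt1-null group (5 arrays), the same virus deleted floxed Wt1 (Wt1 f/f), the gene of a zinc finger transcription factor. In the double group (7 arrays), Cre did both. Control fibroblasts (5 arrays) received an adenovirus carrying GFP. RNA was taken 7 days after infection in all 4 groups, so all had been exposed to an adenovirus. Cre and the altered alleles came together in each group set against the control, and the effects of these cannot be told apart there, whereas both sides of a comparison between the double group and either single group had received Cre. Whether the arrays of a group came from different embryos or cultures is not stated. The p-values therefore measure only how far these arrays vary, and that variation may be technical.

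Immediate early genes are switched on by growth factor, stress and cAMP signals from factors already present in the cell, without new protein synthesis. ERK signalling acts on many of them through serum response factor (SRF) and its ETS partners at CArG boxes, and cAMP and calcium signals act through CREB at cAMP response elements (CREs). EGR proteins are zinc finger transcription factors, NR4A proteins are orphan nuclear receptors, and the IER proteins are structurally unlike each other. In cultured fibroblasts a serum pulse raises most of these transcripts briefly, and steady culture leaves them lower.

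Promoters are shown because they carry the elements that these signals act on. RefSeq windows of GRCm38.p6, 250 bases before a transcript start, were examined for 6 of the 9 genes. The promoters of Egr1, Egr3 and Ier2 were not examined, so nothing is said here of their elements. The core of the CRE, TGACG, was searched on both strands, so CGTCA is a match, and it also lies within the full CRE, TGACGTCA. The windows of Nr4a1, Nr4a2 and Nr4a3 each held 4 such cores, and 45 of 32851 windows of that length (0.137%) held 4 or more. The windows of Nr4a1 (chr15:101266596-101266845, plus strand) and Nr4a2 (chr2:57124004-57124253, minus strand) are printed 5′ to 3′ with the cores in capitals, together with 1 match to the EGR motif GCGGGGGCG in Nr4a1, which reads CGCCCCCGC on the strand shown.
Nr4a2: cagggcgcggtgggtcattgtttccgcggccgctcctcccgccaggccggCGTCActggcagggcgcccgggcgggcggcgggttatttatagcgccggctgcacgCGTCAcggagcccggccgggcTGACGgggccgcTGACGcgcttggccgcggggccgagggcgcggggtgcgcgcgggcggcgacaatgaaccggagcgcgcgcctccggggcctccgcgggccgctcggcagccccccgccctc
Nr4a1: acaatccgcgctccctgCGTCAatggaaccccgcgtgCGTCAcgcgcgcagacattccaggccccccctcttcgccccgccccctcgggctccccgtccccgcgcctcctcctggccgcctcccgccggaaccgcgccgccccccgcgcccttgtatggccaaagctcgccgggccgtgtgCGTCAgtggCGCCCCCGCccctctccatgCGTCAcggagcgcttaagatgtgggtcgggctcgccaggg

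Stretches of 30 bases are shown for Egr2 (chr10:67537797-67537826, plus strand, beginning 72 bases before a start), where a CArG box is followed by a CRE core, and for Nr4a3 (chr4:48045092-48045121, plus strand, beginning 213 bases before the start), where a pair of cores lies on opposite strands. Both elements are in capitals.
Egr2: CCATATATGGgcagcgaCGTCAcgggtatt
Nr4a3: CGTCAcatTGACGtctcgcattccaggcac
A CArG box was present in 1.47% of the 32851 windows, a CRE core in 17.8%, the full CRE in 1.55% and GCGGGGGCG in 2.57%. No examined window of the members held the full CRE, and of these genes only Egr2 had a CArG box. The windows of Ier3 and Ier5 held no CArG box, CRE core, GCGGGGGCG or GCGTGGGCG (the last present in 0.536% of windows). These are matches of letters and do not show binding.

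All 11 fibroblast markers were measured, and their mean was 12.54 to 13.82 per array. The marker lists of leukocytes, endothelium, epithelium, skeletal muscle and neural cells had array means between 5.23 and 8.20. Within the muscle list, Acta1, which encodes skeletal muscle actin, averaged 11.05, Des 8.10, and the muscle regulators Myod1 and Myog 5.55 and 5.49. The probe set of Wt1 averaged between 4.38 and 4.59 in every group, and the values of 3 Y-linked genes on the 9 arrays with high Xist, taken as background, were 3.65 to 5.06. Wt1 therefore gives no check of the labels. High Xist was found on 0 of 5 oncogene, 2 of 5 Wt1-null, 5 of 7 double and 2 of 5 control arrays. Wt1-null replicate 2 and double replicate 2 correlated at 0.998 over all probe sets despite their different labels, as did Wt1-null replicates 3 and 4. Oncogene replicate 4 and double replicate 4 stood farthest from the other arrays, with mean correlations of 0.963 and 0.940.

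Of the 9 genes, Egr3 alone passed the test in any comparison, through 1 of its probe sets. It rose in the oncogene group and in the double group. In the oncogene group, 1 of the 20 member probe sets was called against the control, in limma's test, where 1.07% of all probe sets were called. In the double group it was 1 of 20, with 4.01% called over all probe sets. In the Wt1-null group 0 of 20 were called (0.0422% of all), with 19 called over all probe sets. An unadjusted p below 0.05 was found for 4 of 20 members in the oncogene group (13.5% of all probe sets), 7 of 20 in the Wt1-null group (11.0%) and 7 of 20 in the double group (17.8%). A test of any difference among the 4 groups called 1 of 20 members and 1.84% of all probe sets. Between the double and oncogene groups 0 of 20 members and 0% of all probe sets were called, and 0 members had an unadjusted p below 0.05, beside 3.52% of all.

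More of the member probe sets lay above the control than below it. In the oncogene group 12 of 20 probe sets were above the control and the median difference was 0.516, beside a median of -0.024 over all probe sets. In the Wt1-null group it was 14 of 20 with a median of 0.411, beside -0.031. In the double group it was 12 of 20 with a median of 0.386, beside -0.025. The 3 comparisons share their control arrays. In bulk samples fewer cells of a type and less RNA per cell cannot be told apart.

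**Figure D1:**
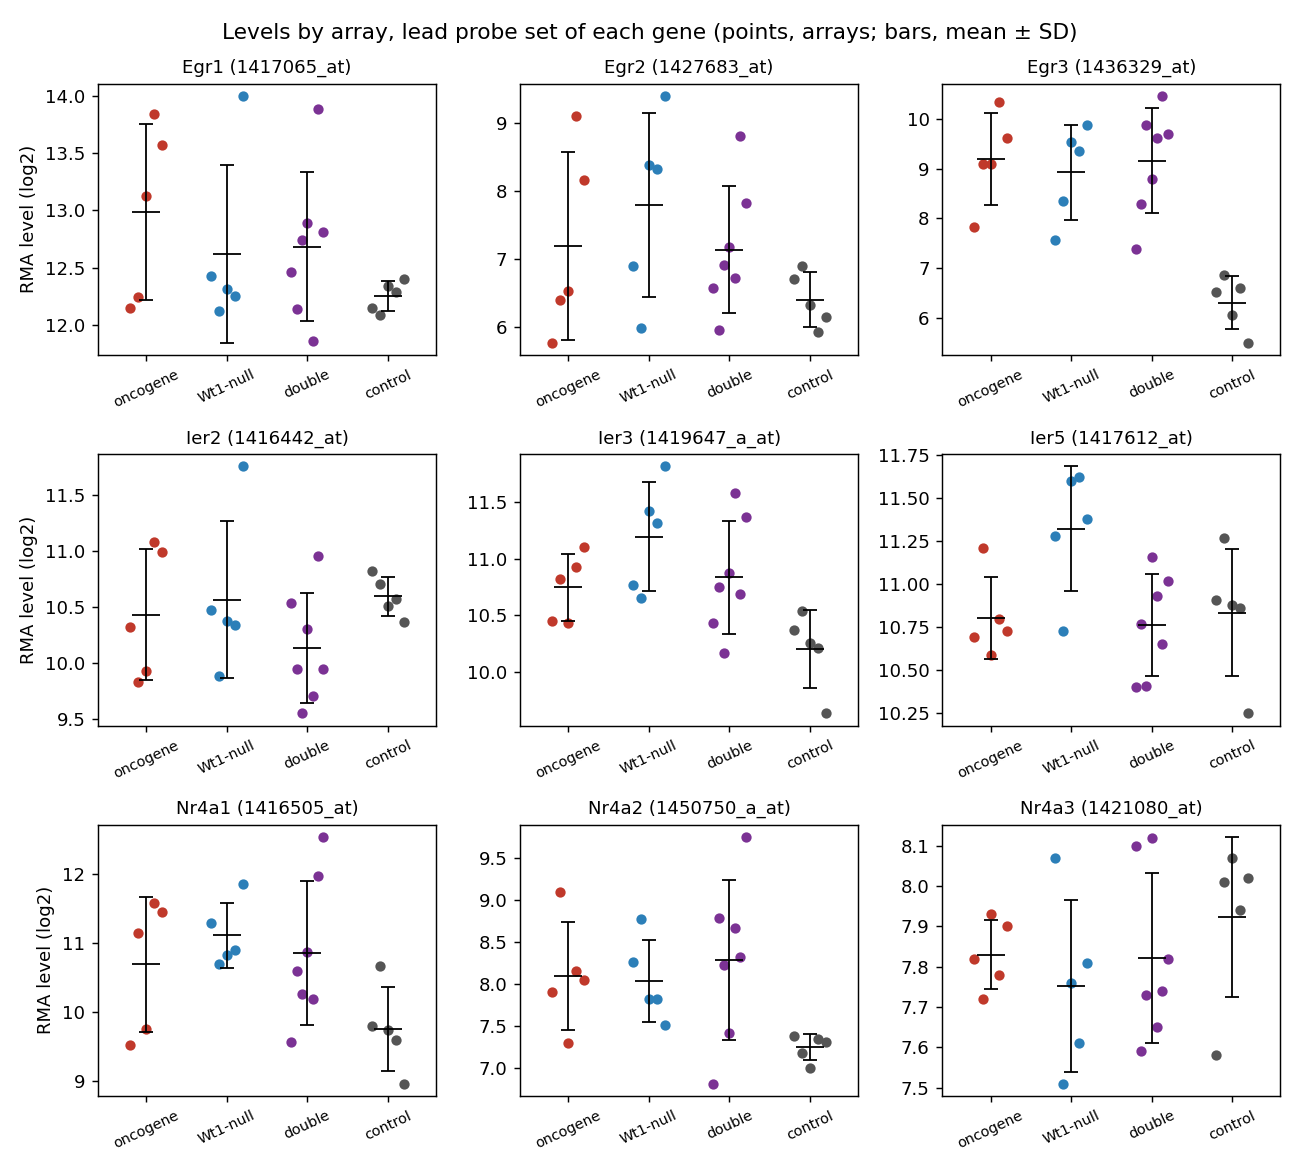
Log2 expression level on each array (y axis) for 1 probe set of each of the 9 genes, by group (x axis), with points for arrays and bars for the mean and SD. Egr3 shows every array of the oncogene, Wt1-null and double groups above the control arrays, and the other panels overlap more.

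Among the EGR factors, Egr3, a regulator of growth and differentiation genes that binds the same GC-rich site as EGR1, gave the most separated values. Its probe set 1436329_at read 7.82, 9.10, 9.09, 10.33 and 9.61 on the oncogene arrays, 7.56, 8.34, 9.53, 9.35 and 9.87 on the Wt1-null arrays, 7.39, 8.28, 9.88, 8.79, 9.62, 10.46 and 9.70 on the double arrays, and 6.51, 6.86, 6.05, 6.60 and 5.50 on the control arrays. No array of the first 3 groups overlapped the control arrays, the lowest being replicate 1 in each of them. Group means were 9.19 ± 0.92 (SD, n = 5) in the oncogene group, 8.93 ± 0.96 (n = 5) in the Wt1-null group, 9.16 ± 1.06 (n = 7) in the double group and 6.30 ± 0.54 (n = 5) in the control.

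Egr3 was 7.39-fold higher in the oncogene group than in the control (95% interval 3.37 to 16.2, log2 difference 2.88 ± 0.54 SE, limma adjusted p = 0.0141). It was 7.25-fold higher in the double group (3.50 to 15.0, log2 difference 2.86 ± 0.50 SE, adjusted p = 0.00331). The Wt1-null difference had a similar size, 6.18-fold (2.82 to 13.5, log2 difference 2.63 ± 0.54 SE), and did not pass, with an adjusted p of 0.105. That p passed when Wt1-null replicate 1 was left out (0.0322) or double replicate 1 was left out (0.0272). A call in one group and not another does not show that the groups differ.

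The differences between the Cre groups were small for Egr3. The double group lay -0.03 from the oncogene group (95% interval -1.08 to 1.02, adjusted p = 1) and 0.23 from the Wt1-null group (-0.82 to 1.28, adjusted p = 0.875). The interaction, the double difference minus the sum of both single differences, was -2.65 ± 0.74 SE (adjusted p = 0.654). It includes the control arrays, so an effect of Cre shared by the other groups enters it with a minus sign. Such an effect and an interaction of the altered alleles cannot be told apart. Without Wt1-null replicate 2, oncogene replicate 4 and double replicate 4, the differences from the control were 2.91 (adjusted p = 0.0147), 2.77 (0.0882) and 2.92 (0.00296) in the oncogene, Wt1-null and double groups.

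With Xist as a covariate, the Egr3 differences from the control were 2.68 (adjusted p = 0.0272), 2.64 (0.107) and 3.06 (0.00722) in the oncogene, Wt1-null and double groups. The sample records fall into 3 sets of neighbouring numbers, which no label calls a batch. No set held both double and Wt1-null arrays, so set and group cannot be told apart where these are compared. Within the set that held 4 oncogene, 7 double and 4 control arrays, the oncogene difference was 3.28 (adjusted p = 0.0157) and the double difference 2.91 (0.00779). Within the set that held 3 Wt1-null arrays and 1 control array, the Wt1-null difference was 3.08 (0.155). With the near-identical Wt1-null replicates 3 and 4 averaged into 1 array, that difference was 2.50 (0.357).

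The other Egr3 probe set, 1421486_at, did not follow this pattern. Its mean was 7.48 ± 0.23 in the oncogene group, 7.35 ± 0.15 in the Wt1-null group, 7.55 ± 0.20 in the double group and 7.58 ± 0.16 in the control (SD, n = 5, 5, 7 and 5). Its differences from the control were -0.10, -0.23 and -0.03 in the oncogene, Wt1-null and double groups, and it correlated with 1436329_at at -0.04 over all 22 arrays and at 0.26 with group means removed. When the probe sets of each gene were averaged, the Egr3 differences were 1.39, 1.20 and 1.41, and those of the oncogene and double groups were still called.

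**Figure D2:**
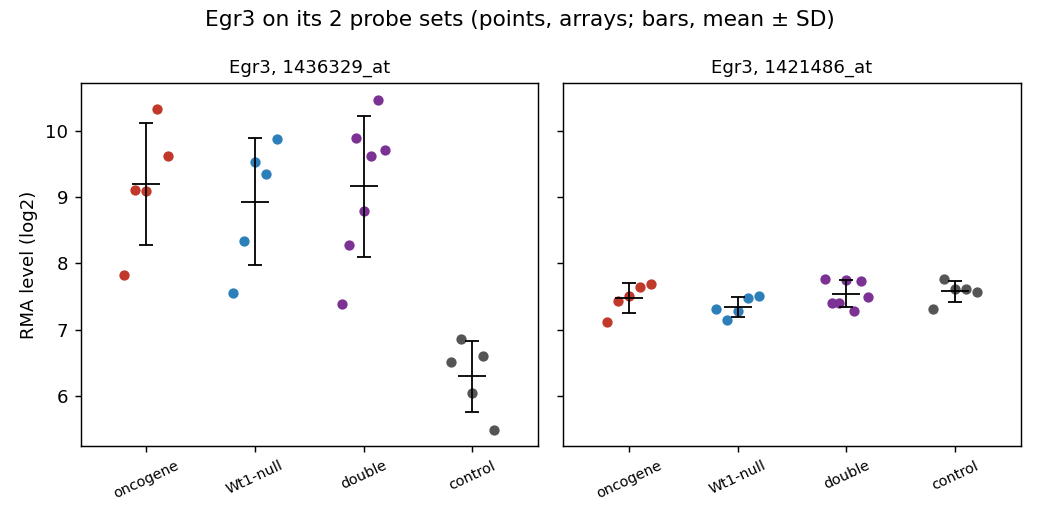
Log2 level of each Egr3 probe set on each array (y axis), by group (x axis), with bars for the mean and SD. 1436329_at lies between 7.39 and 10.46 on the arrays given Cre and between 5.50 and 6.86 on the control arrays, while the group means of 1421486_at lie between 7.35 and 7.58.

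Egr1, the best known member of the family and a direct ERK-responsive gene, was spread widely within the Cre groups. Its probe set read 12.15, 12.24, 13.13, 13.84 and 13.57 on the oncogene arrays, 12.43, 12.12, 12.31, 12.25 and 14.00 on the Wt1-null arrays, 12.46, 12.14, 12.74, 12.89, 11.86, 13.89 and 12.81 on the double arrays, and 12.15, 12.09, 12.34, 12.29 and 12.40 on the control arrays. The groups overlapped, and the SD was 0.77, 0.78 and 0.65 in the oncogene, Wt1-null and double groups against 0.13 in the control. The difference was 0.73 in the oncogene group (95% interval -0.07 to 1.53, limma adjusted p = 0.421), 0.36 in the Wt1-null group (-0.43 to 1.16) and 0.43 in the double group (-0.31 to 1.17).

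Egr2, known for its role in hindbrain patterning and Schwann cell myelination, was also variable. 1427683_at read 5.77, 6.40, 6.53, 9.09 and 8.16 on the oncogene arrays, 6.90, 5.98, 8.38, 8.32 and 9.39 on the Wt1-null arrays, 6.57, 5.96, 6.91, 7.17, 6.72, 8.81 and 7.82 on the double arrays, and 6.71, 6.90, 6.33, 5.93 and 6.15 on the control arrays. A few arrays of each Cre group stood above every control array and others lay among or below the controls. The largest difference from the control was in the Wt1-null group, 1.39 ± 0.64 SE (limma adjusted p = 0.438), and the oncogene and double differences were 0.79 and 0.73. The second probe set of Egr2 tracked the first, with a correlation of 0.99 over the 22 arrays, group means removed.

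Of the IER genes, none was called in any comparison with all 22 arrays weighted equally. A fit with unequal array weights called Ier3 and every Ier5 probe set in the Wt1-null group against the control, beside 8482 of all probe sets. Ier3, which encodes a stress-responsive regulator of cell survival, read 10.45, 10.82, 10.43, 10.93 and 11.10 on the oncogene arrays, 10.77, 10.65, 11.42, 11.31 and 11.81 on the Wt1-null arrays, 10.43, 10.75, 10.17, 10.87, 11.58, 10.69 and 11.37 on the double arrays, and 10.37, 10.54, 10.26, 10.21 and 9.64 on the control arrays. All Wt1-null arrays lay above all control arrays, and the other Cre groups overlapped the control. The Wt1-null difference was 0.99 ± 0.26 SE (limma adjusted p = 0.202), beside 0.55 ± 0.26 (0.353) in the oncogene group and 0.63 ± 0.24 (0.145) in the double group. None was called.

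Ier2, whose product is a nuclear protein induced by growth factors, averaged 10.43 ± 0.58 in the oncogene group, 10.56 ± 0.70 in the Wt1-null group, 10.13 ± 0.49 in the double group and 10.59 ± 0.18 in the control (SD, n = 5, 5, 7 and 5). Its differences from the control were -0.16, -0.03 and -0.46 in those groups, with a 95% interval of -1.07 to 0.14 for the double group. The groups overlapped, and none of the differences was called.

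Ier5, an HSF1 and PP2A cofactor, was highest in the Wt1-null group on all 3 of its probe sets. 1417612_at read 10.69, 11.21, 10.59, 10.80 and 10.73 on the oncogene arrays, 11.28, 10.73, 11.60, 11.62 and 11.38 on the Wt1-null arrays, 10.40, 10.77, 10.41, 11.16, 10.93, 10.65 and 11.02 on the double arrays, and 10.91, 11.27, 10.88, 10.86 and 10.25 on the control arrays. Wt1-null replicate 2 was the only Wt1-null array within the range of the double arrays. Against the control the 3 probe sets differed by 0.49, 0.45 and 1.06 in the Wt1-null group, and by -0.03, -0.15 and 0.53 in the oncogene group, with none called.

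Against the Wt1-null group, the double group had lower Ier5 on the 3 probe sets, with differences of -0.56 ± 0.18 SE (limma adjusted p = 0.192), -0.72 ± 0.20 (0.156) and -0.72 ± 0.26 (0.237). In this comparison 0 of 20 members and 0.00666% of all probe sets were called, and 4 of 20 members had an unadjusted p below 0.05, beside 13.0% of all. Without Wt1-null replicate 2, which correlated at 0.998 with double replicate 2, Ier5 was lower by -0.71 (adjusted p = 0.0267) on 1417612_at and -0.93 (0.00729) on 1417613_at, and both were called. On 1460009_at the difference was -0.88 and was not called. Without that array 1697 probe sets were called in all, against 3 with it. The double and Wt1-null arrays lie in different sets of neighbouring record numbers, so group and set cannot be told apart in this comparison. With the set as a fixed block, 1417613_at differed by -0.52 and was not called.

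The NR4A receptors had means above the control in every Cre group on some of their probe sets, and none was called with all 22 arrays weighted equally. A fit with unequal array weights called Nr4a1 in the Wt1-null and double groups, beside 8482 and 10791 of all probe sets. It also called probe sets of Nr4a2 and Nr4a3, some higher and some lower than the control. Nr4a1 (also called Nur77) read 9.52, 11.14, 9.75, 11.58 and 11.44 on the oncogene arrays, 11.28, 10.69, 10.82, 10.89 and 11.85 on the Wt1-null arrays, 9.57, 10.59, 10.26, 10.87, 10.18, 11.96 and 12.53 on the double arrays, and 9.80, 10.67, 9.74, 9.59 and 8.96 on the control arrays. The Wt1-null arrays lay just above the control arrays, from 10.69 upward against at most 10.67, and the other Cre groups overlapped the control. The differences were 0.94 ± 0.50 SE, 1.35 ± 0.50 and 1.10 ± 0.46 in the oncogene, Wt1-null and double groups, with limma adjusted p-values of 0.432, 0.357 and 0.208.

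Nr4a2 (Nurr1), a receptor known for its role in dopamine neurons, has 6 probe sets here, which disagreed. 1450750_a_at read 7.90, 9.09, 7.30, 8.15 and 8.04 on the oncogene arrays, 8.26, 8.77, 7.82, 7.82 and 7.51 on the Wt1-null arrays, 6.81, 8.78, 8.22, 7.42, 8.66, 8.32 and 9.75 on the double arrays, and 7.38, 7.18, 7.00, 7.34 and 7.31 on the control arrays. The Wt1-null arrays did not overlap the control arrays, and double replicate 1 was below all of them. The differences were 0.86 ± 0.40 SE in the oncogene group, 0.80 ± 0.40 in the Wt1-null group and 1.04 ± 0.37 in the double group (limma adjusted p = 0.359, 0.476 and 0.129). Without double replicate 1 the double difference was 1.28 (adjusted p = 0.0228) and was called. The same setting called another Nr4a2 probe set, 1433422_at, lower in the double group, at -0.33 (adjusted p = 0.0358). With all arrays 1433422_at differed from the control by -0.25, -0.11 and -0.28 in the oncogene, Wt1-null and double groups (limma adjusted p = 0.291, 0.724 and 0.113).

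The probe sets 1455034_at and 1447863_s_at of Nr4a2 followed 1450750_a_at, with correlations of 0.96 and 0.87 over the 22 arrays with group means removed. The other 3 correlated with it at 0.54, -0.39 and 0.23 on the same measure. Among these, 1450749_a_at was higher on every double array (6.85 to 7.38) than on every Wt1-null array (6.62 to 6.77), a difference of 0.32 ± 0.10 SE (limma adjusted p = 0.178).

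Nr4a3 (NOR1) had 1 probe set that varied, 1438796_at, with means of 6.66 ± 0.70 in the oncogene group, 6.49 ± 0.23 in the Wt1-null group, 6.73 ± 0.73 in the double group and 6.16 ± 0.21 in the control (SD, n = 5, 5, 7 and 5). It read 8.08 on double replicate 7 and 7.58 on oncogene replicate 3, and the groups overlapped. None of its differences from the control (0.51, 0.33 and 0.57 in the oncogene, Wt1-null and double groups) was called. 1421080_at differed from the control by -0.09, -0.18 and -0.10, and 1421079_at lay at the level of Y-linked genes on arrays with high Xist.

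**Figure D3:**
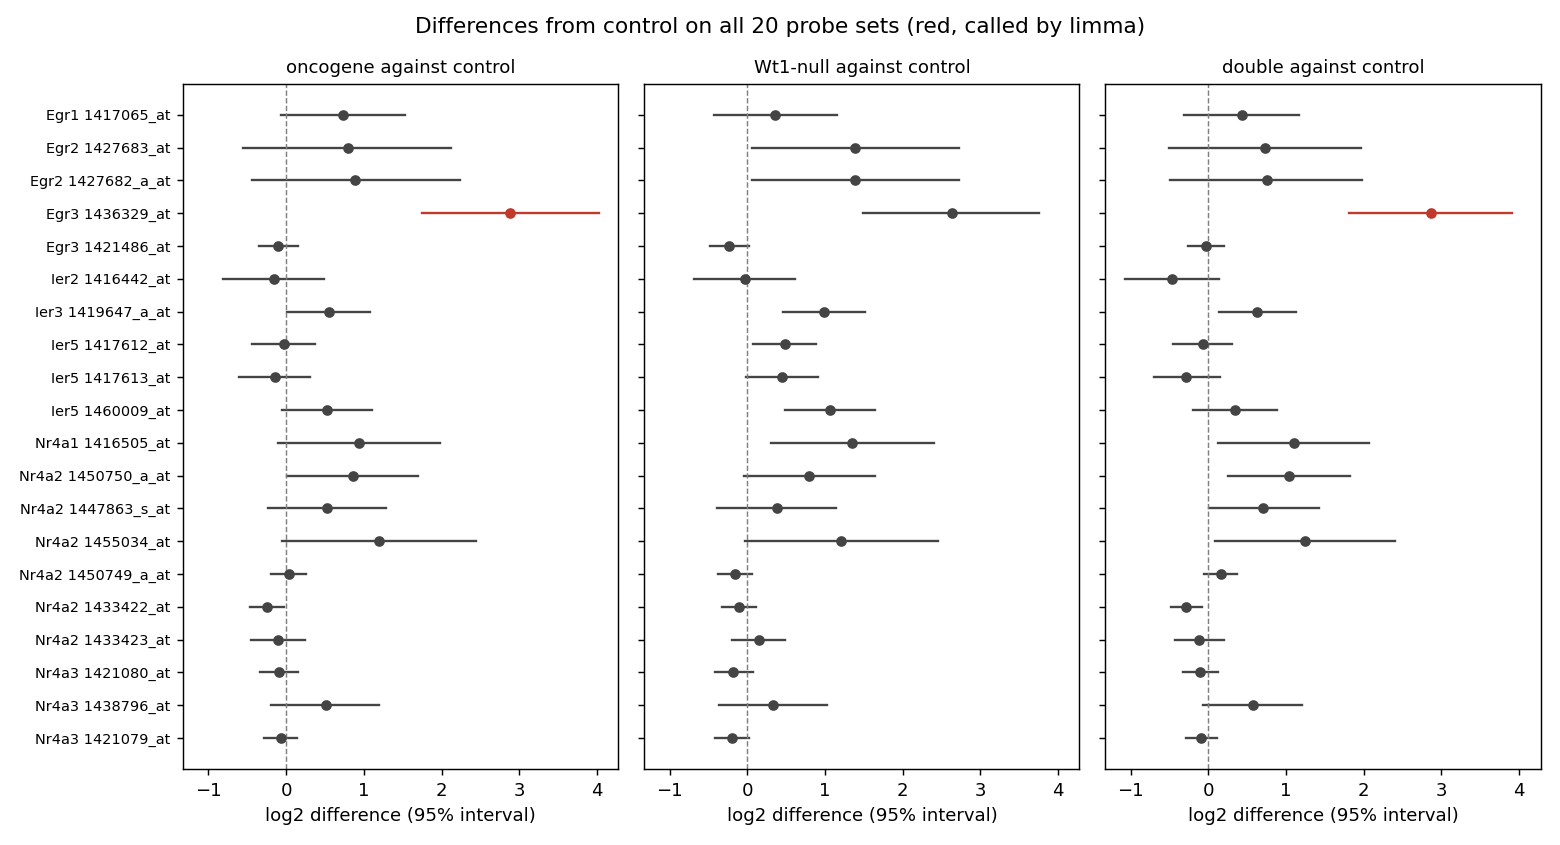
Log2 difference from the control (x axis) of each of the 20 member probe sets in the oncogene, Wt1-null and double groups, with 95% intervals from limma. Egr3 1436329_at sits near 2.88, 2.63 and 2.86, and no other difference exceeds 1.39. Red marks differences called by limma.

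Counted as groups whose arrays did not overlap, 1 of 20 members (Egr3) was separate in the oncogene group against the control, where 4.79% of all probe sets were. In the Wt1-null group 5 of 20 were, all higher, namely Egr3, Ier3, Nr4a1 and a pair of Nr4a2 probe sets, against 4.36% of all. In the double group 1 of 20 was (Egr3), against 3.38%. Between the double and oncogene groups it was 0 of 20, against 0.138%, and between the double and Wt1-null groups it was 1 of 20 (Nr4a2 1450749_a_at), against 0.77%.

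An effect of Cre, which every group but the control received, enters the interaction with a minus sign. It cannot be told apart there from an interaction of the altered alleles. The interaction was below 0 for 15 of 20 member probe sets and above 0 for 5, beside 55.8% above 0 over all probe sets. Its median was -0.547, beside 0.032 over all probe sets. In it 0 of 20 members and 0.00888% of all were called by limma, and 3 of 20 members had an unadjusted p below 0.05, against 7.52% of all. After Egr3, the interaction of Ier5 1460009_at (-1.25 ± 0.38 SE) and of Ier3 (-0.90 ± 0.35 SE) had the lowest unadjusted p, and both had an adjusted p of 0.654.

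Members were compared with each other for high and low levels on the same arrays. With 1 probe set a gene and group means removed, 28 of 36 pairs correlated above 0 over the 22 arrays, with a median of 0.32 and a range of -0.54 to 0.79. Arrays share their RNA sample across genes, and no value for pairs of all genes is given here, so these values are descriptive. Egr1 and Egr2 correlated at 0.79, Egr1 and Ier2 at 0.79, Egr2 and Egr3 at 0.78 and Ier3 and Ier5 at 0.72, and Nr4a2 with Nr4a3 at -0.54. For Nr4a3 this used 1421080_at, which varied little within groups (SD 0.19). Its correlation with 1438796_at, the Nr4a3 probe set that varied (SD 0.55), was -0.05 with group means removed.

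Some arrays were high or low for many members. Wt1-null replicate 5 was highest in its group for 6 of 9 genes, oncogene replicate 5 for 5 and double replicate 6 for 4, and Wt1-null replicate 2 was lowest in its group for 7. Wt1-null replicate 5 exceeded every control array for 8 of 9 genes. Oncogene replicate 1 and oncogene replicate 4 did so for 2 genes each.

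**Figure D4:**
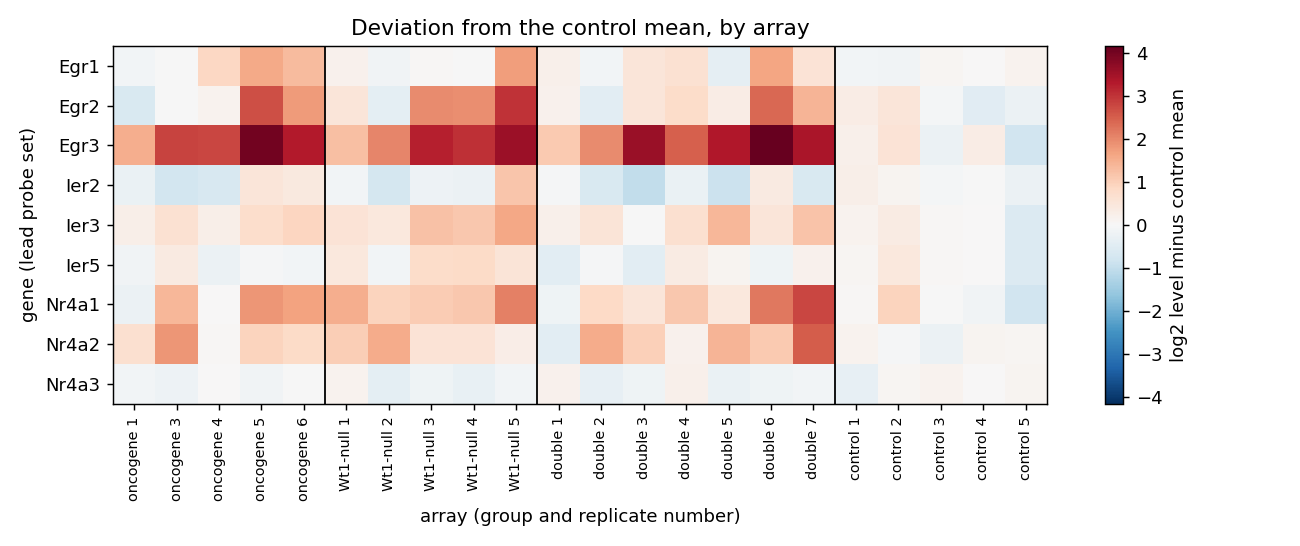
Log2 level minus the control mean (colour, red above 0 and blue below) for 1 probe set of each of the 9 genes (rows), on each array (columns, by group and replicate number). Egr3 is above the control mean on all arrays given Cre, and Wt1-null replicate 5 exceeds every control array for 8 of 9 genes.

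Genes whose levels followed a member most closely over the 22 arrays were taken from 11923 genes for the highest-level gene of each family. For Egr1 these were Helb (r = 0.89), Pald1 (0.88), Fgfr3 (0.87), Pask (0.87) and Arid5b (0.85). For Ier5 they were Gcnt2 (0.88), Slc20a1 (0.87), Tubb6 (0.86), Fhl2 (0.86) and Ehbp1l1 (0.84). For Nr4a1 they were Crim1 (0.83), Fzd7 (0.80), Ctps (0.79), Maff (0.79) and Hbegf (0.79). Egr3 was added after its values were seen, and its neighbours were Slit2 (0.94), Igf1r (0.92), Cmip (0.89), Atp2a2 (0.89) and Enc1 (0.89).

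The genes that act around the members were counted with 1 probe set a gene. Against the control, 1.07%, 0.0422% and 4.01% of all probe sets were called in the oncogene, Wt1-null and double groups. These shares stand beside the calls in each list below. Over all genes, 43.8%, 40.3% and 45.4% lay above the control in the oncogene, Wt1-null and double groups, with medians of -0.03, -0.048 and -0.022. Of 30 other immediate early genes, 19, 23 and 19 lay above the control in these groups, with medians of 0.20, 0.45 and 0.15. None was called in the oncogene or Wt1-null group, and 1, Fosl1, an AP-1 subunit induced by ERK, rose in the double group by 1.15 (limma adjusted p = 0.0160). In the oncogene group Fosl1 differed by 1.12 (adjusted p = 0.0572), and another of its probe sets, by 0.99 (0.0389), was called. Nfkbiz differed by 2.38 ± 0.68 SE (0.0911), Rhob by -0.71 (0.0706) and Trib1 by 0.52 (0.208).

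Of 9 factors that act on immediate early promoters, 8 were analysed here. Elk3, an ETS partner of SRF, rose by 0.58 ± 0.10 SE in the oncogene group (limma adjusted p = 0.0112) and by 0.52 in the double group (0.00483). Its other 3 probe sets differed by 0.75, 0.38 and 0.15 in the oncogene group and were not called. No other factor of the 8 was called in any group against the control. Srf itself differed by 0.73 in the oncogene group (adjusted p = 0.257), Mkl2 by 0.62 (0.215) and Elk1 by -0.47 (0.240).

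Partners and targets of EGR factors were counted in the same way, beside 4.01% of all probe sets called in the double group. Of Egr4 and the EGR corepressors Nab1 and Nab2, none of 3 was called. Nab2, an EGR target that also feeds back on EGR factors, differed by 0.59 ± 0.15 SE in the oncogene group (limma adjusted p = 0.0652). Of 10 reported EGR1 targets, 9 were analysed here, and 1, Fn1, was called, in the double group alone. Fn1 encodes the matrix protein fibronectin, and its probe set of highest mean rose there by 0.91 (adjusted p = 0.0330). Its other probe set differed by -0.08 in the double group (adjusted p = 0.952), so the call rests on 1 probe set. In the oncogene group Fn1 differed by 0.85 (0.116) and Cd44 by 0.64 (0.196).

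Heat shock genes, which also respond to handling of cultures, were checked beside the members. Of the 8 measured, 6, 7 and 6 lay above the control in the oncogene, Wt1-null and double groups, with medians of 0.19, 0.23 and 0.22, and Dnajb1 was called in the double group (0.42, limma adjusted p = 0.0319). Hspa1a differed by 0.93 in the oncogene group (adjusted p = 0.363). Their part in the members' values was not tested.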

How the data were processed

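Log2 values were deposited by the authors for 22 Affymetrix mouse arrays, made with the RMA algorithm in Affymetrix Expression Console, per the series' design text and the submitters' processing notes. RMA corrects background, equalises the arrays' distributions by quantiles and summarises probes, so a shift shared by most genes is removed. Array medians were 6.23 to 6.33. The number of arrays limits the precision.

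Of 45037 probe sets tested (64 controls left out), 34945 had 1 gene in the platform annotation, 932 several and 9160 none listed. RefSeq matched 34741 of the first by gene ID, with 0 symbols changed. Group means over all 22 arrays were fitted with limma 3.58.1 (lmFit, eBayes) in R 4.3.3, two-sided, with Benjamini-Hochberg adjustment over all probe sets. The fit was tested on simulated data.

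All 9 genes were named. The lead probe set of a gene is its highest by mean, and for lists the called genes and up to 4 of smallest p in the oncogene comparison were named. The members and lists were chosen with earlier results of these data known. The mutant oncogene's name is not reported here. Alternatives covered arrays left out, array weights, blocks, filters, probe set summaries and normalization.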

Additional observations from a re-analysis of the deposited data

Results flagged for a closer look

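Of 80 sets of 1 probe set in 1 group, 3 held an array far from the others of its group by Dixon's test, where chance gives about 1 in 20, or 4 here. Egr1 read 14.00 on Wt1-null replicate 5, and the next Wt1-null array read 12.43. Ier5 1417613_at read 7.97 on control replicate 5, against 8.72 on the next control array. Nr4a3 1421080_at read 7.58 on control replicate 1, and the next control array read 7.94.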

How the results depend on the processing

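In 38 alternatives, the Egr3 difference from the control was called each time in the oncogene group (1.39 to 3.28) and the double group (1.41 to 3.15), and in 5 alternatives in the Wt1-null group (adjusted p of 0.000329 to 0.386 over all). Array weights called 4 member probe sets in the oncogene, 9 in the Wt1-null and 9 in the double group against the control, 5 in the double group against the Wt1-null group, 2 in the interaction and 13 in the test of any difference, beside 5795, 8482, 10791, 4785, 1121 and 12521 of all 45037 probe sets in the same order. They gave Wt1-null replicates 3 and 4, which are nearly identical, weights of 2.46 and 2.59. In the Wt1-null group against the control, 1 member was called with only the groups compared and 1 with the replicate block. Whether arrays of the same replicate number share a culture is not stated. Of 28 same-number pairs, 12 correlated above 0.1, and the values ran from -0.44 to 0.78. The highest were oncogene and double replicate 4 (0.78), Wt1-null and double replicate 2 (0.6) and oncogene and double replicate 6 (0.58). Without Wt1-null replicate 2 and double replicate 2, 2 members were called in the double group against the Wt1-null group and 2 in the test of any difference. Without Wt1-null replicate 2, oncogene replicate 4 and double replicate 4, a setting chosen after seeing the data, 3 were called in the double group against the control, 2 in the double group against the Wt1-null group and 4 in the test of any difference. Leaving out 1 array at a time gave 0 to 1 in the Wt1-null group and 1 to 3 in the double group against the control, 0 to 2 in the double group against the Wt1-null group, and 1 to 2 in the test of any difference. Of 5052 alternative values of 140 member results, 4994 kept their call, 58 did not and 0 reversed a call; the cause was not tested. Over all probe sets, calls against the control ran from 125 to 5795 (483 as reported) in the oncogene group, 0 to 8482 (19) in the Wt1-null group and 709 to 10791 (1805) in the double group. They ran from 0 to 4785 (3) in the double group against the Wt1-null group, 0 to 1121 (4) in the interaction and 296 to 12521 (828) in the test of any difference.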
